A study of Mus musculus with 8 samples.

Results

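The genes described here are the aminoacyl-tRNA synthetases of the mouse, 20 listed genes for the cytosolic enzymes and 16 for the mitochondrial enzymes, whose symbols end in 2. Of these 36 genes, 35 had a probe set (a group of short probes read together as 1 value) in the platform annotation used here, out of 18194 genes in all. Dars, the cytosolic aspartate enzyme, had none in that annotation. The members were taken by gene name and were compared as 2 classes in 3T3-L1 adipocytes, fat cells obtained in culture by differentiating a mouse fibroblast line, either left as controls or given tunicamycin, a drug that blocks the start of N-linked glycosylation. The controls were 3T3-L1 adipocytes without tunicamycin, with 1 array at 4 h, 2 arrays at 8 h and 1 array at 12 h. The treated groups were 3T3-L1 adipocytes with tunicamycin, with 1 array at 4 h, 1 at 8 h and 2 at 12 h. No dose of tunicamycin was stated in the sources used here, and all 8 arrays come from 1 cell line.

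Aminoacyl-tRNA synthetases join each amino acid to its transfer RNA, the step that feeds protein synthesis. Protein synthesis in the cytosol and in mitochondria draws on largely separate sets of these enzymes, both encoded in the nucleus, while Gars and Kars each give rise to a cytosolic and a mitochondrial form. Loss of glycosylation disturbs protein folding in the endoplasmic reticulum, and among the known responses is translation of the transcription factor ATF4, which binds the C/EBP-ATF response element of genes for amino acid supply and tRNA charging.

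The deposited intensities had a median of 9.56 to 22.03 and a mean of 114 to 257 per array, and were brought to 1 distribution by quantile normalization. Effects are differences of log2(intensity + 2.96) between tunicamycin and control, so a fold change understates the change of genes with low intensities. The actin 3′ to 5′ ratio, a sign of RNA length, was 1.51 to 1.82 in controls, 2.81 on the tunicamycin array at 4 h and at most 1.71 on the other tunicamycin arrays. The same ratio for pyruvate carboxylase was 12.1 to 15.3 in controls and 43.5 on the tunicamycin array at 4 h. On the other tunicamycin arrays it was 6.74 to 19.8. The ratio of the control probe sets bioC and bioB was 1.52 to 1.60 at 12 h and 3.50 to 3.94 at 4 h and 8 h. Adipocyte markers summed to between 39831 and 46676 intensity units in controls and between 32145 and 43642 with tunicamycin. Over all times 6 of the 9 tested were lower with tunicamycin, against 9.68% of all tested genes. The sums were mostly Fabp4, Adipoq and Lpl, which were not called. Fabp4 was at the same value, 10780, on each control and on the tunicamycin array at 8 h, so the sums say little of the other markers. Cebpa had the largest effect, -1.50. Fibroblast markers summed to between 28693 and 34271 in controls and between 21991 and 27326 with tunicamycin. Of the 8 tested, 1 was higher and 3 were lower, against 11.1% and 9.68% of all tested genes. No adipocyte or fibroblast marker was at 0. Macrophage markers summed to at most 399 on any array, 2 of the 5 passed the filter on low values, neither was called, and Itgam and Ptprc were each at 0 on 1 array. The adipocyte markers that were called and the fibroblast sums were lower with tunicamycin. Their part in the results below was not tested, nor was that of the actin, pyruvate carboxylase and bioC to bioB ratios. In such bulk samples fewer cells of a type and less RNA per cell cannot be told apart.

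Most cytosolic synthetase transcripts rose with tunicamycin, and most mitochondrial ones did not pass the test. Over all times, 14 of the 19 tested cytosolic genes were higher, 0 were lower and 5 did not pass the test, with effects from -0.23 to 1.46 on the log2 scale and a median of 0.77. Of the 15 tested mitochondrial genes, 2 were higher, 0 were lower and 13 did not pass, with effects from -0.97 to 0.77 and a median of 0.07. The test was limma with Benjamini-Hochberg adjustment over all 10916 tested genes. It called 11.1% of them higher and 9.68% lower, with a median effect of -0.01. The cytosolic share called higher was 73.7% and the mitochondrial share 13.3%, the latter close to that of all genes. At an unadjusted p under 0.05, 0 cytosolic genes and 1 mitochondrial gene were lower, against 17.6% of all genes. Limma called 9 cytosolic genes without the tunicamycin array at 8 h and 13 without the one at 4 h. With the arrays at their deposited scaling, where the median of all genes was -0.31, 2 cytosolic genes were called higher, 0 mitochondrial genes were called higher and 1, Sars2, was called lower. That scaling called 143 genes higher and 707 lower, against 1207 and 1057 after quantile normalization, and the cytosolic median stood 0.73 above that of all genes there, compared with 0.78.

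**Figure D1:**
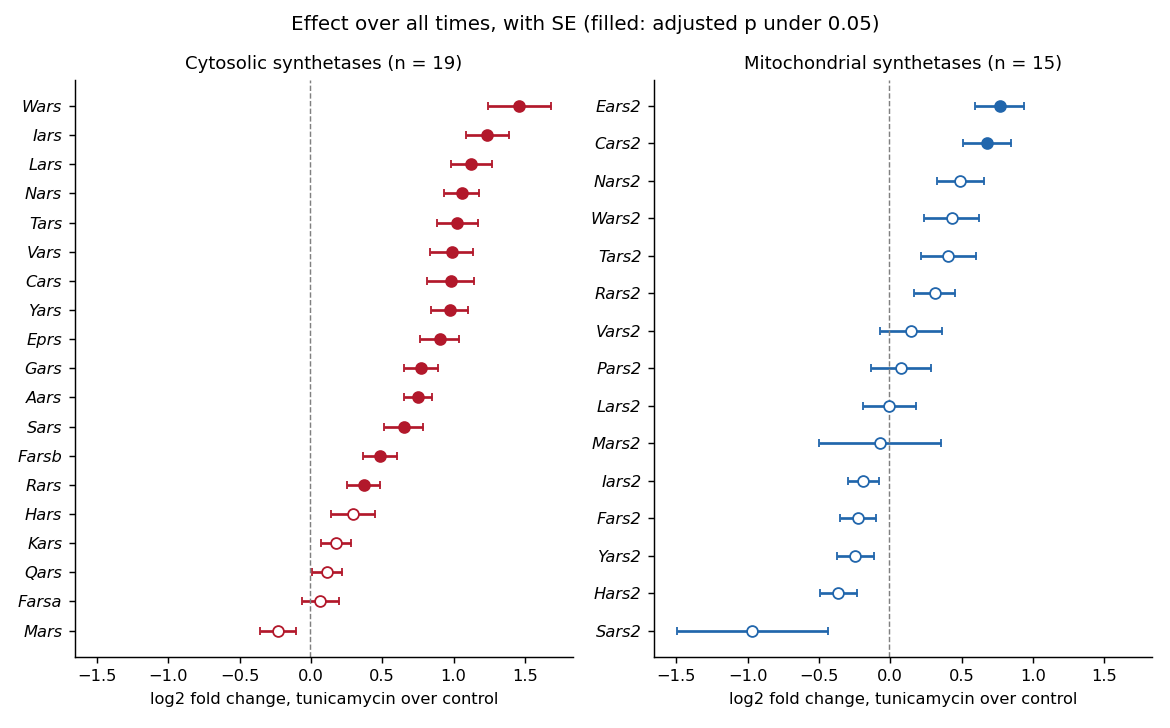
Effect of tunicamycin over all times for each tested cytosolic (left, red) and mitochondrial (right, blue) synthetase, as log2 fold change with its standard error. Filled points passed the adjusted p threshold of 0.05, which 14 of 19 cytosolic and 2 of 15 mitochondrial genes did, and the dashed line is the median of all tested genes, -0.01.

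The separation was present on each tunicamycin array. Relative to the mean of the 4 controls, the cytosolic class median was 0.59 on the tunicamycin array at 4 h, 0.81 at 8 h, and 0.93 and 0.80 on those at 12 h. The control arrays lay between -0.11 and 0.14. The mitochondrial class median lay between -0.04 and 0.12 on the tunicamycin arrays and between -0.14 and 0.11 on the controls, so its treated and control arrays overlapped. The cytosolic median exceeded the mitochondrial median by 0.47 on the tunicamycin array at 4 h, 0.84 at 8 h, and 0.90 and 0.76 at 12 h. On the controls that gap ran from -0.16 to 0.13.

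**Figure D2:**
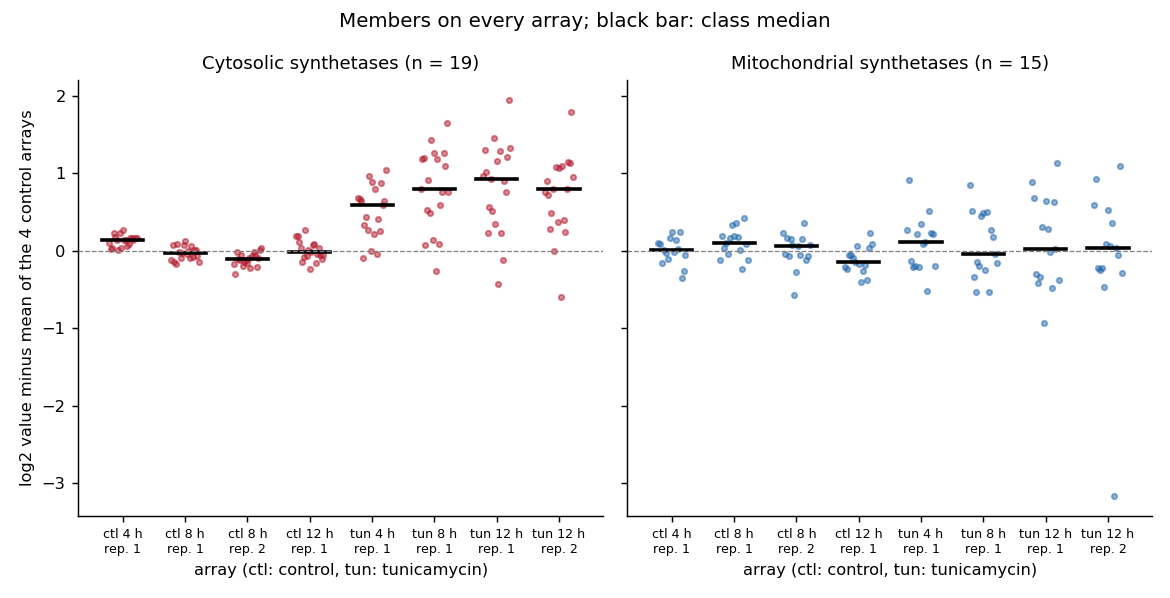
Each tested member on each array, as its log2 value minus the mean of the 4 control arrays, with cytosolic genes on the left and mitochondrial genes on the right. Black bars are class medians, which on the tunicamycin arrays lie between 0.59 and 0.93 for the cytosolic class and between -0.04 and 0.12 for the mitochondrial class. The lowest blue point is Sars2 on the second tunicamycin array at 12 h.

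The cytosolic enzymes that act outside the multisynthetase complex, the scaffolded particle of cytosolic enzymes, held most of the called genes. Of these 12 genes 10 were higher, with a median effect of 0.87. Wars, the tryptophan enzyme, had the largest effect of all 34 tested members. Its intensity was 323 on the control array at 4 h, 275 and 291 on those at 8 h and 268 on that at 12 h. With tunicamycin it was 453 at 4 h, 911 at 8 h, and 1128 and 1004 at 12 h. Every tunicamycin array lay above every control, and the lowest was the array at 4 h. Wars rose 2.75-fold over all times (log2 effect 1.46 ± 0.22 SE, adjusted p = 0.00268 by limma), from 289 ± 24.6 in 4 controls to 874 ± 294 in 4 treated arrays (mean ± SD). Its other 3 probe sets above the filter on low values gave effects of 1.62, 1.46 and 1.48.

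Nars charges asparagine, the product of the amino acid synthesis gene Asns. Its intensity was 1327 on the control array at 4 h, 1200 and 1026 at 8 h and 1268 at 12 h. With tunicamycin it was 2088 at 4 h, 2739 at 8 h, and 2950 and 2562 at 12 h. The controls did not reach the treated arrays at any time. Nars rose 2.08-fold (log2 effect 1.06 ± 0.13 SE, adjusted p = 0.00102 by limma), the smallest adjusted p among the members.

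Cars, the cysteine enzyme, gave 187 on the control array at 4 h, 193 and 148 at 8 h and 210 at 12 h. With tunicamycin it gave 294 at 4 h, 420 at 8 h, and 457 and 346 at 12 h. All 4 treated arrays were above all 4 controls, and the log2 effect was 0.98 ± 0.16 SE (adjusted p = 0.00391). The call was lost without the tunicamycin array at 8 h (adjusted p = 0.0583), and averaging with a second probe set, at a mean log2 value of 2.96, turned the effect to -0.02 (adjusted p = 0.97). Sars charges serine. Its intensity was 1198 on the control array at 4 h, 1014 and 1029 at 8 h and 1041 at 12 h, and with tunicamycin 1279 at 4 h, 1813 at 8 h, and 1998 and 1860 at 12 h. For Sars the treated array at 4 h was close to its control and the later arrays were well above theirs, with a log2 effect of 0.65 ± 0.14 SE (adjusted p = 0.0108). That call was lost without the tunicamycin array at 8 h (adjusted p = 0.105) or the control at 12 h (adjusted p = 0.0769). Among the other free enzymes, the effects were 1.03 for Tars (threonine), 0.99 for Vars (valine, an enzyme that associates with elongation factor 1), 0.97 for Yars (tyrosine), 0.77 for Gars (glycine) and 0.75 for Aars (alanine). All 5 rose, and the Gars call was lost without the tunicamycin array at 8 h (adjusted p = 0.0514). The cytosolic phenylalanine enzyme is built from 2 kinds of subunit, and their transcripts differed in call. Farsb, the beta subunit, rose by 0.48 ± 0.12 SE (adjusted p = 0.0201), while Farsa, the alpha subunit with the catalytic site, had an effect of 0.07 ± 0.13 SE (adjusted p = 0.756). A second, dimmer Farsa probe set gave -0.39. The Farsb call was lost in 4 of the 8 fits that each left out 1 array, with adjusted p from 0.0529 to 0.124, and the difference between the subunits was not tested. Hars, the histidine enzyme, had an effect of 0.29 ± 0.15 SE and did not pass the test (adjusted p = 0.205).

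Promoter sequences are shown for the 5 cytosolic members that hold the core of the C/EBP-ATF response element, TGATGNAA, because this element is where ATF4 is known to bind, and for a pair of mitochondrial counterparts without it. The RefSeq promoter table of build GRCm38.p6, 250 bases before to 50 bases after each gene start, held 27 of the 36 members. Both strands were searched. The core was present in 5 of the 13 cytosolic genes with an entry (38.5%), in 0 of 14 mitochondrial genes and in 4.51% of all 27025 genes in the table (3.97% of its 32851 promoters). Capitals mark the match, which lies on the complementary strand in each sequence but that of Yars. Each sequence is written 5′ to 3′ on the strand of the gene.
Aars, chr8:111033690-111033777, plus strand, match starting 112 bases before the gene start: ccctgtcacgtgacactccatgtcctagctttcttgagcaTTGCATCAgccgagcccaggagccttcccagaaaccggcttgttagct
Aars, chr8:111033840-111033869, plus strand, match 10 bases after the start: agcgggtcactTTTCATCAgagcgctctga
Gars, chr6:55037931-55038000, plus strand, match 30 bases before the start: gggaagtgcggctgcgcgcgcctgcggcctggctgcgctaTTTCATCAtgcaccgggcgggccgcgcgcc
Iars, chr13:49682126-49682155, plus strand, match 8 bases after the start: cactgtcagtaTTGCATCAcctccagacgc
Tars, chr15:11399659-11399713, minus strand, match 15 bases before the start: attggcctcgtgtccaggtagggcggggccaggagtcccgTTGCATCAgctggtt
Yars, chr4:129189895-129189924, plus strand, match 4 bases after the start: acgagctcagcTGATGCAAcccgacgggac
Iars2, chr1:185329402-185329481, minus strand, no match in its window: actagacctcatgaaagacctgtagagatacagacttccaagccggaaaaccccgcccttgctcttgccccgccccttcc
Yars2, chr16:16302885-16302964, plus strand, no match in its window: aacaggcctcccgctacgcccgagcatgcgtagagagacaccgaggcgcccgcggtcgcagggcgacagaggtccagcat

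All 5 genes with a match were among the 14 cytosolic genes that rose, 8 of which have a promoter entry. None of the 4 uncalled cytosolic genes with an entry held it (0 of 4). The 3 others of those 8 rose without a match in this window, and a match is a description of letters, not of a bound site. Cars, Lars, Nars, Rars, Vars and Wars also rose but have no entry, so they were not searched. The share with a match among all genes called higher was not computed. A link between a match and the rise was not tested. Neither the ER stress response element bound by ATF6 nor the unfolded protein response element, TGACGTGG, was found in either class. That search covered the 13 cytosolic and 14 mitochondrial genes with an entry. Among all promoters in the table these elements were present in 0.119% and 0.676%. The effects of the 5 genes with a match were 0.75 for Aars, 0.77 for Gars, 1.24 for Iars, 1.03 for Tars and 0.97 for Yars. Their mitochondrial counterparts held no match, with effects of -0.19 for Iars2, -0.24 for Yars2 and 0.41 for Tars2, and Aars2 was not tested. Cars2 and Ears2, the 2 mitochondrial genes called higher, have an entry and held no match either.

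The enzymes of the multisynthetase complex included both strong rises and genes that did not pass. Of its 8 synthetases 7 were tested, 4 were higher, and the median effect was 0.37. Iars, the isoleucine enzyme, gave 764 on the control array at 4 h, 640 and 587 at 8 h and 619 at 12 h. With tunicamycin it gave 1275 at 4 h, 1756 at 8 h, and 1783 and 1379 at 12 h. The treated arrays stood apart from the controls from 4 h on, and the rise was 2.36-fold (log2 effect 1.24 ± 0.15 SE, adjusted p = 0.00105).

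Lars, the leucine enzyme, gave 795 on the control array at 4 h, 719 and 588 at 8 h and 559 at 12 h. With tunicamycin it gave 1217 at 4 h, 1583 at 8 h, and 1477 and 1383 at 12 h. Lars rose 2.18-fold (log2 effect 1.12 ± 0.14 SE, adjusted p = 0.0013), with no overlap between treated and control arrays. Eprs encodes a joined enzyme for glutamate and proline. Its intensity was 1006 on the control array at 4 h, 885 and 971 at 8 h and 1054 at 12 h, and with tunicamycin 1524 at 4 h, 2248 at 8 h, and 1987 and 1608 at 12 h. Eprs rose by 0.90 ± 0.14 SE on the log2 scale (adjusted p = 0.00265), and it was highest at 8 h. Rars, for arginine, was the weakest call of the class at 0.37 ± 0.12 SE (adjusted p = 0.0495). At 12 h its effect was 0.21 (adjusted p = 0.398), and the call over all times was lost in 7 of 8 fits that each left out 1 array.

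The other complex members did not pass. Kars, for lysine, had an effect of 0.18 ± 0.10 SE (adjusted p = 0.257) and Qars, for glutamine, 0.11 ± 0.11 SE (adjusted p = 0.495). Mars, for methionine including the initiator tRNA, was the only tested cytosolic member with an effect below 0. Its intensity was 443 on the control array at 4 h, 391 and 377 at 8 h and 397 at 12 h, and with tunicamycin 465 at 4 h, 335 at 8 h, and 298 and 264 at 12 h. At 4 h the treated array was slightly above its control, and at 8 h and 12 h it was below. The effect over all times was -0.23 ± 0.13 SE (adjusted p = 0.221) and at 12 h -0.50 ± 0.15 SE (adjusted p = 0.0526), which passed at 0.0361 with each array scaled to its median. Among the nonenzymatic scaffold proteins of the complex, Aimp2 rose by 0.62 ± 0.13 SE (adjusted p = 0.00894), Aimp1 had an effect of 0.30 (adjusted p = 0.102) and Eef1e1 one of -0.10 (adjusted p = 0.565).

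The cytosolic class was also counted by localisation and by catalytic fold. Of the pair whose products serve both compartments, Gars rose and Kars did not pass, and without them 13 of 17 cytosolic genes were higher with a median effect of 0.90. Cytosolic enzymes of catalytic class I, which share a Rossmann fold, were higher in 7 of 9 genes with a median of 0.98. Those of class II were higher in 6 of 9 with a median of 0.65, where Eprs, which joins both kinds of domain, is in neither count.

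Mitochondrial synthetases were called higher in 2 genes. Ears2, the glutamate enzyme, which in mitochondria also loads glutamate on the tRNA for glutamine, gave 57.6 on the control array at 4 h, 62.0 and 52.3 at 8 h and 45.6 at 12 h. With tunicamycin it gave 105 at 4 h, 78.9 at 8 h, and 88.7 and 106 at 12 h. Treated and control arrays did not overlap, and Ears2 rose 1.70-fold (log2 effect 0.77 ± 0.17 SE, adjusted p = 0.0136). Averaged with its 3 other probe sets, all under the filter on low values, the effect was 0.16 (adjusted p = 0.779). Cars2, the cysteine enzyme, gave 154 on the control array at 4 h, 132 and 169 at 8 h and 124 at 12 h. With tunicamycin it gave 174 at 4 h, 260 at 8 h, and 269 and 217 at 12 h. The treated array at 4 h was the lowest of the treated arrays and just above the highest control, and Cars2 rose 1.60-fold (log2 effect 0.68 ± 0.17 SE, adjusted p = 0.0206). Its second probe set gave 0.92, and with its probe sets averaged the effect was 0.58 (adjusted p = 0.0674). Both calls were lost without the control array at 12 h, where limma called 0 mitochondrial genes. It called 1 without the first control or the tunicamycin array at 8 h, and 4 without either array at 4 h, with Nars2 and Rars2 added.

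Nars2, for asparagine, came next. It gave 126 on the control array at 4 h, 121 and 87.3 at 8 h and 93.9 at 12 h, and with tunicamycin 136 at 4 h, 149 at 8 h, and 167 and 153 at 12 h. All treated arrays lay above all controls, yet the effect of 0.49 ± 0.16 SE missed the threshold (adjusted p = 0.0593). Sars2, for serine, lay on the other side. It gave 43.8 on the control array at 4 h, 43.4 and 48.3 at 8 h and 37.8 at 12 h, and with tunicamycin 29.2 at 4 h, 28.9 at 8 h, and 30.2 and 2.19 at 12 h. Every treated array was below every control, and the last value lies under the pseudocount, so no fold is given. The fitted log2 effect was -0.97 ± 0.53 SE (adjusted p = 0.221), and it rests in part on that array. Without it the effect was -0.50.

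Wars2, for tryptophan, was highest on the treated arrays at 12 h. It gave 44.8 on the control array at 4 h, 57.8 and 51.3 at 8 h and 64.1 at 12 h, and with tunicamycin 63.3 at 4 h, 52.5 at 8 h, and 122 and 118 at 12 h. Its effect was called at 12 h (0.88 ± 0.25 SE, adjusted p = 0.0384) and not over all times (0.43 ± 0.19 SE, adjusted p = 0.144). Iars2, for isoleucine, gave 324 on the control array at 4 h, 322 and 367 at 8 h and 310 at 12 h, and with tunicamycin 287 at 4 h, 300 at 8 h, and 261 and 282 at 12 h. Its treated arrays were all a little below the controls, with an effect of -0.19 ± 0.11 SE (adjusted p = 0.250), and a second, dimmer probe set gave 0.15. Lars2, for leucine, gave 190 on the control array at 4 h, 230 and 217 at 8 h and 186 at 12 h, and with tunicamycin 239 at 4 h, 179 at 8 h, and 254 and 147 at 12 h. The treated array was above its control at 4 h, below both at 8 h, and the 12 h arrays lay on either side of theirs. The effect was -0.005 ± 0.188 SE (adjusted p = 0.988).

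The remaining mitochondrial genes did not pass the test. Effects were 0.41 for Tars2 (threonine), 0.31 for Rars2 (arginine), 0.15 for Vars2 (valine) and 0.07 for Pars2 (proline). Below 0 were Mars2 (methionine) at -0.07, Fars2 (phenylalanine) at -0.23, Yars2 (tyrosine) at -0.24 and Hars2 (histidine) at -0.36, the last with an adjusted p of 0.0709. Aars2, for alanine, fell under the filter on low values, at a mean of 20.4 in controls and at 0 on 1 treated array. All treated arrays lay above the controls of their time in 3 mitochondrial genes (Cars2, Ears2 and Nars2) and below in 4 (Hars2, Iars2, Sars2 and Yars2). Among all tested genes 20.1% lay above and 18.8% below in this way, and for the cytosolic class 14 of 19 lay above and 0 below.

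**Figure D3:**
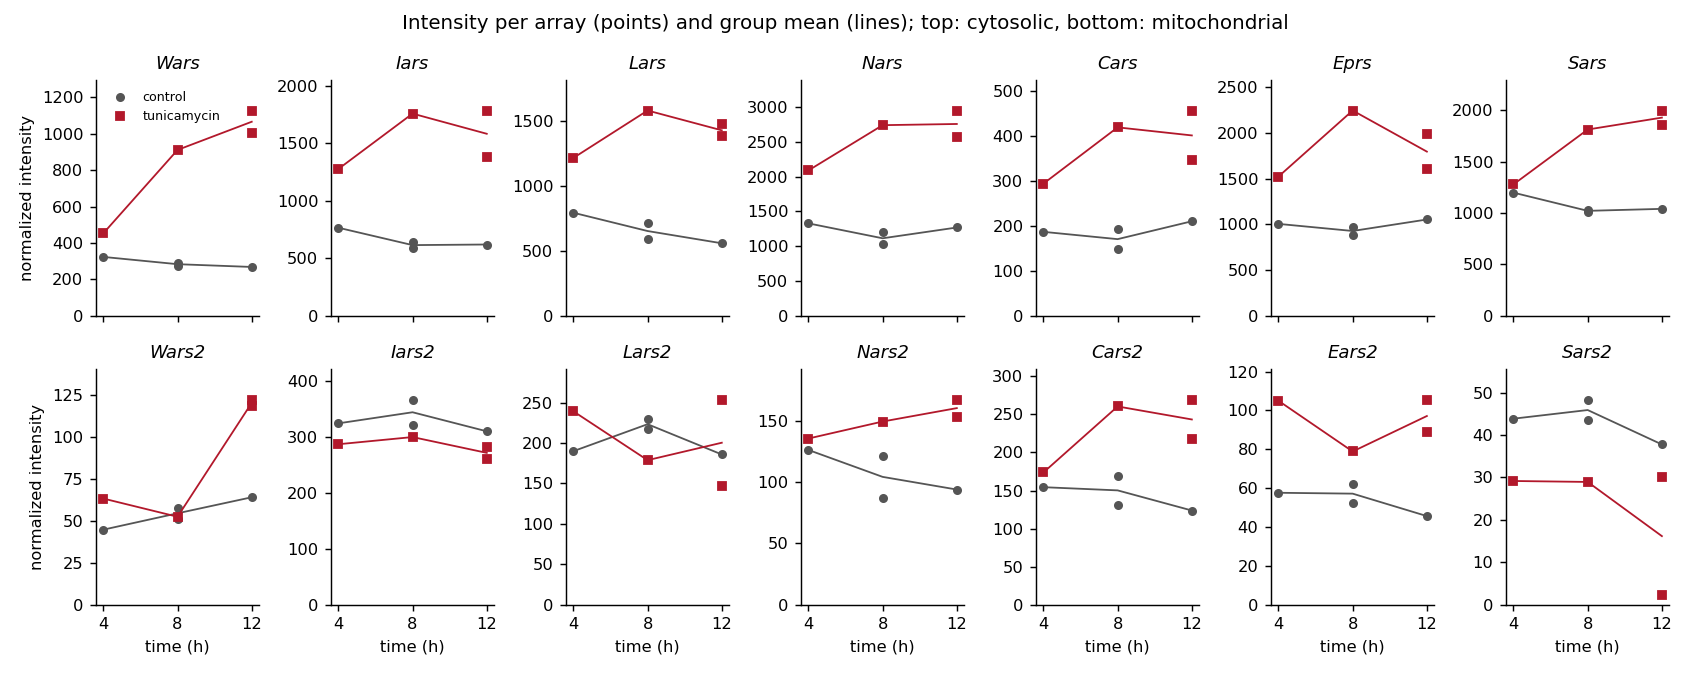
Normalized intensity (vertical axis, linear, starting at 0, with its own range for each gene) against time in hours for 7 cytosolic genes in the upper row and their mitochondrial partners in the lower row. Points are arrays (grey circles control, red squares tunicamycin) and lines join group means. In the upper row every red point lies above the grey points of its time. In the lower row the same holds for Cars2, Ears2 and Nars2. There Sars2 and Iars2 lie below, Lars2 crosses, and Wars2 is farthest apart at 12 h.

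Mitochondrial probe sets were dimmer, with a median mean log2 value of 7.23 against 9.92 for the cytosolic class, and less precise, with a median standard error of 0.17 against 0.13. In the range of signal held by both classes, from 7.75 to 8.47, there were 3 cytosolic genes (Cars, Farsa and Vars), of which 2 were higher, and 2 mitochondrial genes (Iars2 and Rars2), of which 0 were higher. The difference of their medians was 0.92, a comparison chosen after seeing the data.

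Enzymes for the same amino acid were then set against each other within each array, which asks whether the compartments differ once the amino acid is held fixed. The treatment effect was larger on the cytosolic side in 15 of 16 pairs, with a median difference of 0.68 on the log2 scale and a lowest value of -0.16. In 8 pairs the difference on every tunicamycin array was above that of the controls of its time, and in 0 it was below. For all tested genes taken singly, 20.1% lay above and 18.8% below in this way. No share over other gene pairs was computed for either count. These pairs are not independent, since Farsa and Farsb share Fars2, and Eprs is the partner of both Ears2 and Pars2. The difference was 1.42 ± 0.22 SE for isoleucine, 1.22 ± 0.20 for tyrosine, 1.13 ± 0.32 for leucine and 1.03 ± 0.35 for tryptophan. For asparagine it was 0.56 ± 0.11, although both enzymes had positive effects. For serine the fitted difference, 1.62 ± 0.77, rests on the Sars2 value under the pseudocount and takes no place in this order. It was 1.14 without that array, where isoleucine gave 1.49.

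The smallest positive differences were 0.14 ± 0.31 SE for glutamate and 0.06 ± 0.12 for arginine, both less than their error, and that for cysteine was 0.30 ± 0.23. Methionine was the pair with the reverse order, at -0.16 ± 0.46. With treatment permuted within time there are 18 arrangements, so the exact two-sided permutation test of a pair cannot go below p = 0.0556. This value was reached in 7 pairs, and after Benjamini-Hochberg adjustment over the 16 pairs the smallest adjusted p was 0.127. No pair could pass 0.05 in this design.

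**Figure D4:**
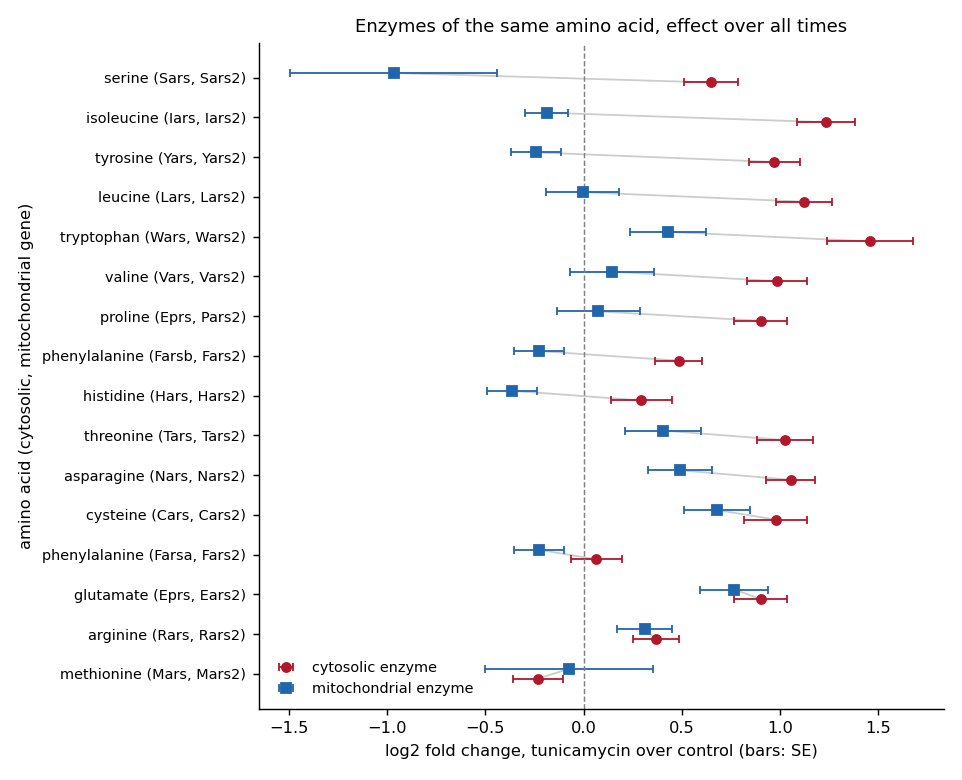
Log2 fold change over all times of the cytosolic (red circles) and mitochondrial (blue squares) enzyme of each amino acid, with standard errors, ordered by the fitted difference between them, in which serine rests on a Sars2 value under the pseudocount. The cytosolic enzyme has the higher value in 15 of 16 pairs, and methionine, at the bottom, is the exception.

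The time course showed little passing the test at 4 h and most of the cytosolic class at 8 h. At 4 h limma called 0 cytosolic and 0 mitochondrial genes, against 0.357% of all genes higher and 0.0366% lower, and at an unadjusted p under 0.05 it found 10 cytosolic genes higher, 0 lower, and 1 mitochondrial gene higher. At that level 7.03% of all genes were higher and 3.80% lower. The cytosolic median was already 0.45, with 16 of 19 effects positive, and the mitochondrial median was 0.10. At 8 h 14 cytosolic genes were higher, with a median of 0.95, and 1 mitochondrial gene was, Cars2, with a class median of -0.05 and with no call (0 genes) without either control at 8 h. The background at 8 h was 9.42% higher and 8.95% lower. At 12 h 13 cytosolic genes were higher, with a median of 0.89, and 3 mitochondrial genes were (Cars2, Ears2 and Wars2), with a class median of 0.06. Without either tunicamycin array at 12 h, 1 mitochondrial gene was called at that time. The background at 12 h was 10.1% higher and 10.9% lower.

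Whether the effect itself differed between times was tested apart from these counts. Wars was the cytosolic gene that passed, with effects of 0.48 ± 0.17 SE at 4 h, 1.68 ± 0.15 at 8 h and 1.98 ± 0.15 at 12 h (limma moderated F test, adjusted p = 0.0388). At an unadjusted p under 0.05 there were 8 cytosolic genes, and 0 of 15 mitochondrial genes at either level. Across all genes 1.72% passed after adjustment and 17.2% at the unadjusted level. The Wars call was lost without either control array at 8 h (adjusted p = 0.102 and 0.0994) or without the first tunicamycin array at 12 h (adjusted p = 0.0625). Sars, at 0.09, 0.83 and 0.89, and Gars, at 0.30, 0.95 and 0.95, also had their lowest effect at 4 h but did not pass. Yars was at 0.87 by 4 h, the largest cytosolic effect at that time.

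**Figure D5:**
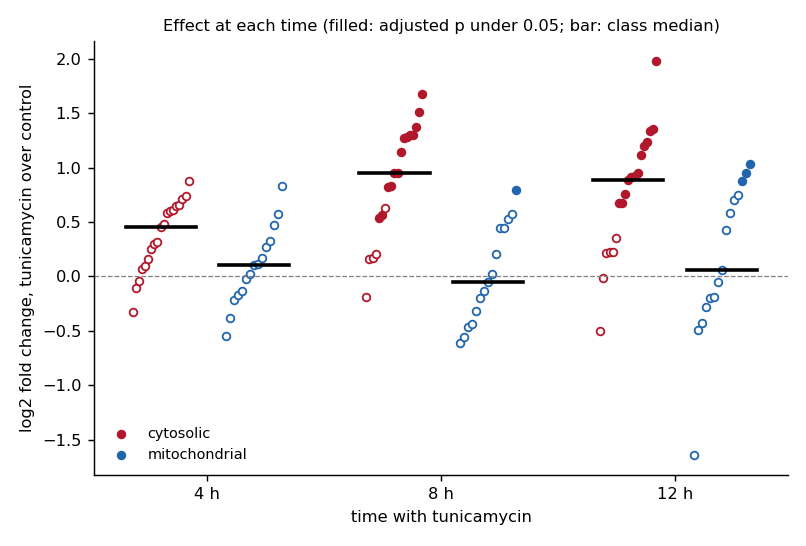
Log2 fold change of each tested member at 4, 8 and 12 h, sorted within each column, for the cytosolic (red) and mitochondrial (blue) class. Filled points passed the adjusted p threshold of 0.05, and black bars are class medians, which are 0.45, 0.95 and 0.89 for the cytosolic class and 0.10, -0.05 and 0.06 for the mitochondrial class.

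The authors' deposited table for each time pairs each probe set with a ratio and its p-value, with no statement of direction. A ratio above 1 was taken to mean more RNA with tunicamycin, since across genes the logarithms correlated with the effects computed here at r = 0.816 at 4 h, 0.926 at 8 h and 0.915 at 12 h (both come from the same arrays). At p under 0.01 in the authors' deposited table, 9 of 19 cytosolic and 0 of 15 mitochondrial genes were higher at 4 h, against 6.17% of all genes. At 8 h these were 15 and 1, against 15.7%, and at 12 h 16 and 4, against 12.7%. Genes that limma did not call over all times were among them. Hars was higher at 8 h (ratio 1.54), and Farsa (ratio 1.43) and Kars (ratio 1.31) at 12 h, while Qars was higher at no time. The cytosolic genes lower in the authors' deposited table numbered 0 at 4 h, 0 at 8 h and 1 at 12 h (Mars, ratio 0.702), and 1 mitochondrial gene was lower at 8 h (Hars2, ratio 0.709) and 1 at 12 h (Yars2, ratio 0.734). The shares of all genes lower were 2.89%, 13% and 15.6%. Wars had ratios of 1.38, 3.70 and 4.33 at the 3 times in the authors' deposited table.

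Outside the synthetases, most genes in a list of Atf4 with its regulators and targets rose. Most other genes around tRNA charging did not pass the test. In the Atf4 list, chosen with earlier results of these data known, 6 of 7 genes were higher over all times, against 11.1% of all tested genes. Atf4, the transcription factor itself, rose by 1.49 on the log2 scale, Ddit3, which encodes CHOP, by 3.18, Trib3, a pseudokinase induced by ATF4, by 3.30 and Eif2ak3, the eIF2alpha kinase PERK, by 1.05. The asparagine synthetase gene Asns rose by 0.92 (adjusted p = 0.00139) and the serine synthesis gene Psat1 by 0.40 (adjusted p = 0.0457). Eif2ak4, the kinase GCN2 that senses uncharged tRNA, had an effect of -0.43 (adjusted p = 0.140) over all times. At 12 h Eif2ak4 was lower, at -0.90 (adjusted p = 0.0413), as were 10.9% of all tested genes. At 4 h the effect of Atf4 was 1.62 (adjusted p = 0.00348).

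Of 12 tested genes for tRNA export and end processing, 2 were higher (16.7%), against 11.1% of all tested genes. They were Xpot, the tRNA export receptor, by 1.03 (adjusted p = 0.00128 by limma) and Xpo5, an export receptor for microRNA precursors, by 0.63 (adjusted p = 0.00643). Of 5 genes in a list of cytosolic elongation factors and the kinase of elongation factor 2, 1 was higher (20%), against 11.1% of all tested genes. It was the kinase, Eef2k, by 0.60 (adjusted p = 0.0231 by limma). The factor genes themselves were not called, with effects of 0.004 for Eef1a1, -0.08 for Eef1b2, 0.04 for Eef1d and 0.05 for Eef2. Of 9 mitochondrial translation factors 1 was lower (11.1%), against 9.68% of all tested genes. It was Gfm2, a ribosome recycling factor, at -0.41 (adjusted p = 0.0498). Of 10 other genes of tRNA charging, 0 were called over all times by limma. At an unadjusted p under 0.05, 1 was higher and 0 were lower, against 17.9% and 17.6% of all tested genes. In that list Gatb, a subunit of the mitochondrial enzyme that makes glutaminyl-tRNA, was lower at 12 h, at -1.49 (adjusted p = 0.0270). Its intensity at 12 h was 52.4 on the single control array and 14.4 and 19.4 with tunicamycin, near the filter level of 15.3. At that time 10.9% of all tested genes were lower.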

How the data were processed

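RNA of 8 samples was measured on Affymetrix arrays, 1 array each. The deposited values are linear intensities of probe sets, per the file headers. Which software and scaling the authors used was not stated in the sources used here. Further tables deposited by the authors give each probe set a log10 ratio with its p-value, by a method also not stated there. They entered no test.

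Intensities were quantile normalized on the linear scale, values below 0 were set to 0, and log2(value + 2.96) was taken, 2.96 being the 10th percentile of all deposited values above 0. Of 45101 probe sets, 34958 had 1 gene symbol, 932 several and 9211 none. Symbols were updated through the RefSeq gene table of GRCm38.p6, which matched 34754. For 18194 genes the probe set of highest mean log2 value stood for the gene, and the 10916 at or above the 40th percentile (15.3 intensity units) were tested, 34 members among them. Of 72 member probe sets 59 passed that level, and 3 of the 18 members with several had probe sets of opposite sign (Farsa, Iars2 and Qars).

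All fits were made with limma 3.58.1 under R 4.3.3 (lmFit and trended eBayes), adjusted by Benjamini-Hochberg over all tested genes. The ER stress response element searched in promoters is CCAAT and CCACG with a spacer of 9 bases. The effect over all times came from an additive model of time and treatment with 4 residual degrees of freedom, whose residual also holds differences of the effect between times. Effects at each time came from a model with 1 mean per group, with 2. Most groups hold 1 array, and the number of arrays limits the precision. The labels call the replicates biological. No arrays were identical (0 pairs), and columns matched to no sample numbered 0. The procedure was tested on simulated data. Figures used matplotlib 3.10.9. The members and gene lists were chosen with earlier results of these data known. All members could be named. Per-array values are given for the 4 members of each class with the largest effect among those called, uncalled ones filling up, and their partners; Mars was added after its values were seen. Alternatives were other scalings, pseudocount, probe set rule, filters, variance prior, replicate block and left-out arrays.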

Additional observations from a re-analysis of the deposited data

Results flagged for a closer look

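Wars was singled out because its response to tunicamycin differed between the time points by a test of the difference itself (limma moderated F test, adjusted p = 0.0388 over all tested genes). Its log2 effect grew from 0.48 at 4 h to 1.68 at 8 h and 1.98 at 12 h. The 12 h effect exceeded the 4 h effect by 1.49. The 4 h values rest on 1 control and 1 tunicamycin array. That tunicamycin array had the highest 3′ to 5′ ratios of actin, 2.81, and of pyruvate carboxylase, 43.5. The bioC to bioB ratio was 1.52 to 1.60 at 12 h and 3.50 to 3.94 at 4 h and 8 h. The part of these array properties in the Wars difference was not tested.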

How the results depend on the processing

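The excess of the cytosolic over the mitochondrial class median, 0.697, kept its sign under every alternative run. It ran from 0.448 to 0.928 when 1 array at a time was left out and was 0.681 at the deposited scaling. The counts of called genes moved more. At the deposited scaling limma called 2 cytosolic genes higher over all times and 0 at 8 h, 0 at 12 h and 0 for a difference between times. It called 0 mitochondrial genes higher over all times, 0 at 8 h and 0 at 12 h, with 1 lower over all times. The class medians there were 0.420 and -0.261, against -0.310 for all genes. With no filter, which raises the number of tested genes to 18194, the cytosolic counts were 7 over all times, 1 at 8 h, 4 at 12 h and 0 for a difference between times, and the mitochondrial counts were 0, 0 and 0. Without the intensity trend there were 8 cytosolic genes at 8 h, 8 at 12 h and 0 for the difference, and 1 mitochondrial gene over all times and 0 at 8 h. With a gene's probe sets averaged, 0 mitochondrial genes were higher over all times, at 8 h or at 12 h, 0 cytosolic genes differed between times, and the mitochondrial median was -0.0200. Under that rule Cars turned to -0.0187 (adjusted p = 0.97), where its second probe set, at a mean log2 value of 2.96, enters the mean. The mitochondrial median was -0.00497 with the 60th percentile filter. Mars was the 1 cytosolic gene called lower at 12 h with that filter, with median scaling and with a pseudocount of 16, and its adjusted p over all alternatives ran from 0.0361 to 0.996. Median scaling left 1 mitochondrial gene higher at 12 h.

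The arrays of 4 h and 8 h alone gave 8 cytosolic and 0 mitochondrial genes and a mitochondrial median of 0.168. Those of 12 h alone gave 4 mitochondrial genes and a median of 0.246. The range of signal held by both classes, an alternative chosen after seeing the data, gave a class difference of 0.917. Leaving out 1 array at a time gave 9 to 13 cytosolic and 0 to 4 mitochondrial genes over all times, class medians of 0.674 to 0.951 and of 0.0223 to 0.227, and 0 to 1 cytosolic genes that differed between times. At 8 h it gave 0 to 1 mitochondrial genes higher. At 12 h it gave 1 to 3 mitochondrial genes higher, 0 to 1 lower (Sars2) and 0 to 1 cytosolic genes lower (Mars). Where this left a group at a time with 1 array, that array was assumed to vary like the others. With the replicate number as a replicate block, 13 cytosolic and 2 mitochondrial genes were called over all times and Rars was lost (adjusted p = 0.0772). The second replicates belong to different times (8 h controls and 12 h tunicamycin). Deviations of same-numbered arrays from their group means correlated at 0.0323 between those groups, and the numbers do not pair the arrays. The cause of these changes was not tested. Low signal limits what can be said of the mitochondrial class.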
